A study of Mus musculus with 16 samples.

Results

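LL2 is a mouse lung carcinoma line, also known as Lewis lung carcinoma, that grows as a transplantable tumour in immunocompetent mice of its own strain. Its DNA copy number profile comes from the single array whose cell line label reads LL2 (strain C57BI6, tissue of origin lung, sex female), 1 of 16 arrays in the series. The DNA came from cells in culture, and LL2 has no replicate array. The other 11 C57BI6 arrays form 7 families, which are the colorectal line MC38, the melanoma B16 (4 arrays, averaged), the liver line Hepa1-6, the pancreatic line PAN02, the prostate line TRAMPC (2 arrays, averaged), the blood line EL4 and the ovarian line ID8. The 4 arrays of other strains hold CT26 (colon), 4T1 (breast) and Renca (renal), all Balb/C, and P815 (mast cells), which is DBA/2. On every array the line's DNA carried Cy5 and a commercial mouse genomic DNA carried Cy3. DNA arrays hold no expression markers, so the lung origin of LL2 was not checked here. Hepa1-6 and PAN02 had nearly the same profile: across 2376 bins of 1 Mb their Pearson correlation was 0.98, against 0.17 to 0.55 for the other pairs of these 7 families. With both counted as 1 family, the number of bins that passed the test between LL2 and the families was the same in each direction.

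Comparative genomic hybridisation reads copy number as the ratio of a tumour's DNA to a reference DNA at many positions. Tumour cells change copy number over whole chromosomes, over chromosome arms and in short stretches. Amplification is a rise of many copies over a short stretch and often carries a growth-promoting oncogene, while a homozygous deletion removes both copies and often carries a tumour suppressor. Inbred mouse strains also differ from each other in copy number, so a tumour compared with a reference of another strain shows differences that were present in the mouse before the tumour arose. Lines of one strain share such inherited differences, which is why the other C57BI6 families are set beside LL2 throughout.

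All values below are log2 of the LL2 signal over the reference signal, with the LL2 autosomal median set to 0. A value of 0 is therefore the middle of the LL2 profile, not a known number of copies. A ratio from bulk DNA cannot tell a change in every cell from a larger change in a share of the cells. The noise between neighbouring probes was 0.358, and 220573 autosomal probes had a value. A segment, a stretch of probes between change points, was called a gain at 0.3 or above and a loss at -0.3 or below. Errors are SEs taken across probes, and they hold no variation between cultures of the line.

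Most of the altered length of LL2 was changed by little, and its autosomal changes at or past 1 in size were all shorter than 5 Mb. The deepest long change, a 27.8 Mb loss on chromosome 4, stood at -0.76. Of the 156 autosomal segments of LL2, 33 were gains (21.2%) and 21 were losses (13.5%), covering 6.72% and 5.70% of the autosomal probes. Together 12.4% of the probes lay in a called segment, and no autosome was gained or lost over at least 90% of its length. Of the 54 called segments, 36 were shorter than 5 Mb. Segments between 0.3 and 0.5 held 6.18% of the probes, those between 0.5 and 1 held 0.434%, and those at or above 1 held 0.109%. Losses at or below -1 held 0.0875%, those between -1 and -0.5 held 0.891% and those between -0.5 and -0.3 held 4.72%. By number rather than by probes, 15 gains lay between 0.3 and 0.5, 7 between 0.5 and 1 and 11 at or above 1, and 7 of the losses lay at or below -1. Most of the segments at or past 1 in size were shared with at least 6 of the 7 other C57BI6 families. The exceptions were the chromosome 15 amplicon, the chromosome 4 deletion, the chromosome 8 gain from 125810875 and the chromosome 5 loss from 50171739. With the profile centred on its mode instead of its median, the gained and lost shares were 24.2% and 1.62%. The 18 segments between 0.25 and 0.3 in size, just short of a call, held 17.2% of the probes, more than the 4.50% in the 9 segments between 0.3 and 0.35.

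**Figure D1:**
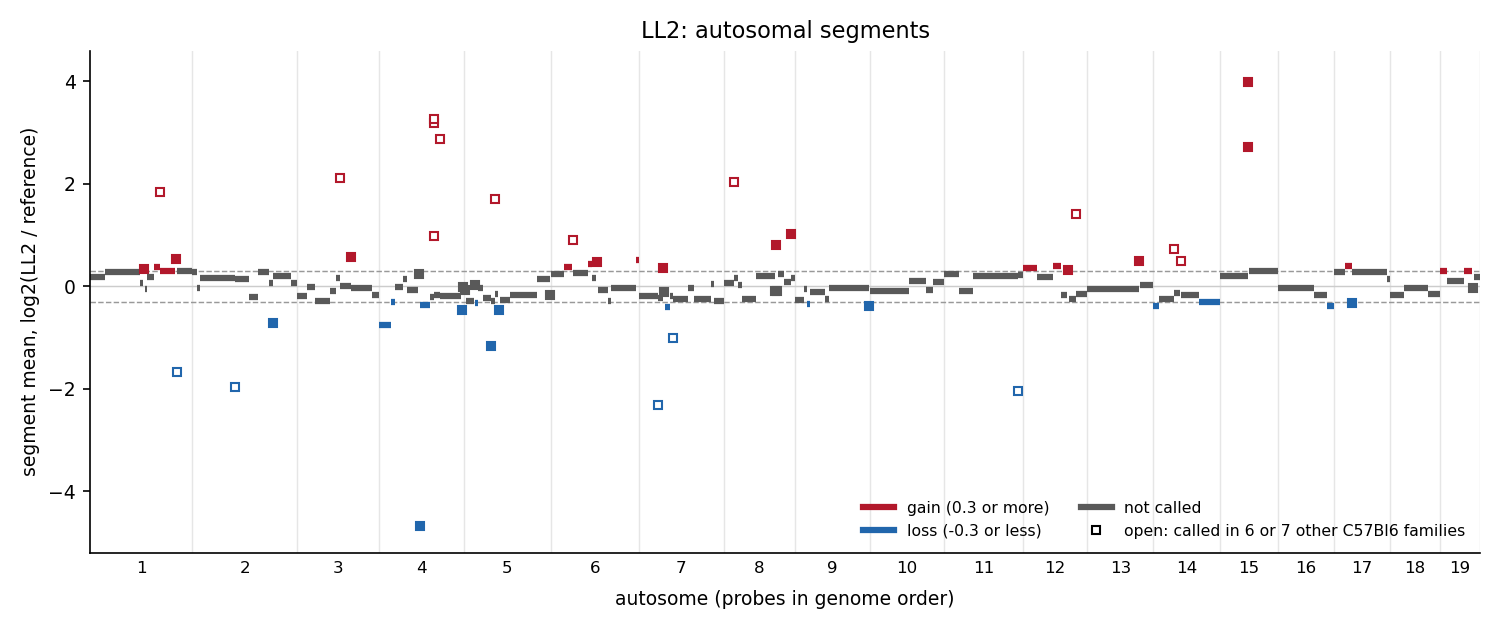
Mean log2 ratio of LL2 over the reference (vertical axis) for each of the 156 autosomal segments, in genome order by autosome (horizontal axis, by probe count). Lines are segments drawn at their width in probes and squares are segments of few probes, with open squares for those also called in 6 or 7 other C57BI6 families, and dashed lines mark the calling thresholds of 0.3 and -0.3. The 2 filled squares above 2 are the chromosome 15 amplicon, and the filled square at -4.67 is the chromosome 4 deletion.

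The deepest long change was a loss of the proximal end of chromosome 4. From 3012291 to 30855692 (build mm8, as are all positions here), a stretch of 27.8 Mb, LL2 stood at -0.76 ± 0.01 (SE, 1901 probes). The 7 other C57BI6 families ran from -0.38 to 0.00 there, so LL2 lay below all of them, and the 4 other-strain lines ran from -0.47 to -0.06. The neighbouring segment, from 30862925 to 40522986, was shallower at -0.31, just below the lowest family at -0.30. The same chromosome was lost again from 89166484 to 105985764 at -0.37, beside a family range of -0.32 to 0.43. In that stretch CT26, Renca and P815 stood lower than LL2, at -0.82, -0.61 and -0.44, and 4T1 stood at -0.29. A further loss ran from 151637994 to 153640057 at -0.46, beside a family range of -0.41 to -0.13. In all, 32.3% of the probes of chromosome 4 lay in lost segments. This chromosome also carries the tumour suppressor genes Cdkn2a and Cdkn2b and their neighbour Mtap, by a gene table on another build (GRCm38), which was not used to place genes inside segments.

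Chromosome 1 was the only autosome whose LL2 median lay above all 7 families. Its median was 0.24 in LL2, against -0.33 in TRAMPC to 0.16 in MC38. Of the other-strain lines, P815 stood higher than LL2 on this chromosome, at 0.32, while CT26, Renca and 4T1 stood at 0.08 to 0.11. A short gain from 141476467 to 141591701 was shared with all 7 other C57BI6 families and all 4 other-strain lines. The other parts past 0.3 ran from 106805365 to 109360704 at 0.35 and from 132426661 to 141455843 at 0.38. Farther along they ran from 141690979 to 170981367 at 0.31 and from 171024870 to 173348548 at 0.54. In the longest of these, at 29.3 Mb, no other family reached 0.3, and their range was -0.33 to 0.23. Of the uncalled segments, the one from 33860044 to 96313553, which spans 62.5 Mb, stood at 0.29 and thus just under the threshold, beside a family range of -0.30 to 0.21. One segment, from 109363651 to 118050446, stood at -0.06, so the gain was not continuous. After the median of the 7 families was subtracted probe by probe and the difference centred again on its autosomal median, the whole chromosome stood at a median of 0.35.

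Chromosome 5 was the only autosome below the families, with a median of -0.19 in LL2 against -0.13 to 0.30. Of the other-strain lines, Renca stood lower than LL2, at -0.35, while 4T1, P815 and CT26 stood at 0.08 to 0.24. Besides a short loss described further on, chromosome 5 of LL2 held losses from 24263323 to 30077331 at -0.33 and from 67628990 to 72256680 at -0.47. There MC38, the lowest family, stood at -0.32 and -0.44. The other 17 autosomal medians lay inside the range of the 7 families. Among them, chromosome 4 had a median of -0.24, beside -0.27 to 0.05, so its loss does not show in a whole-chromosome value. With centring on the mode, 4 autosomes in place of 2 lay outside the range. With 1 line against 7, an exact permutation test cannot give a two-sided p below 0.125, so no chromosome median was tested singly.

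**Figure D2:**
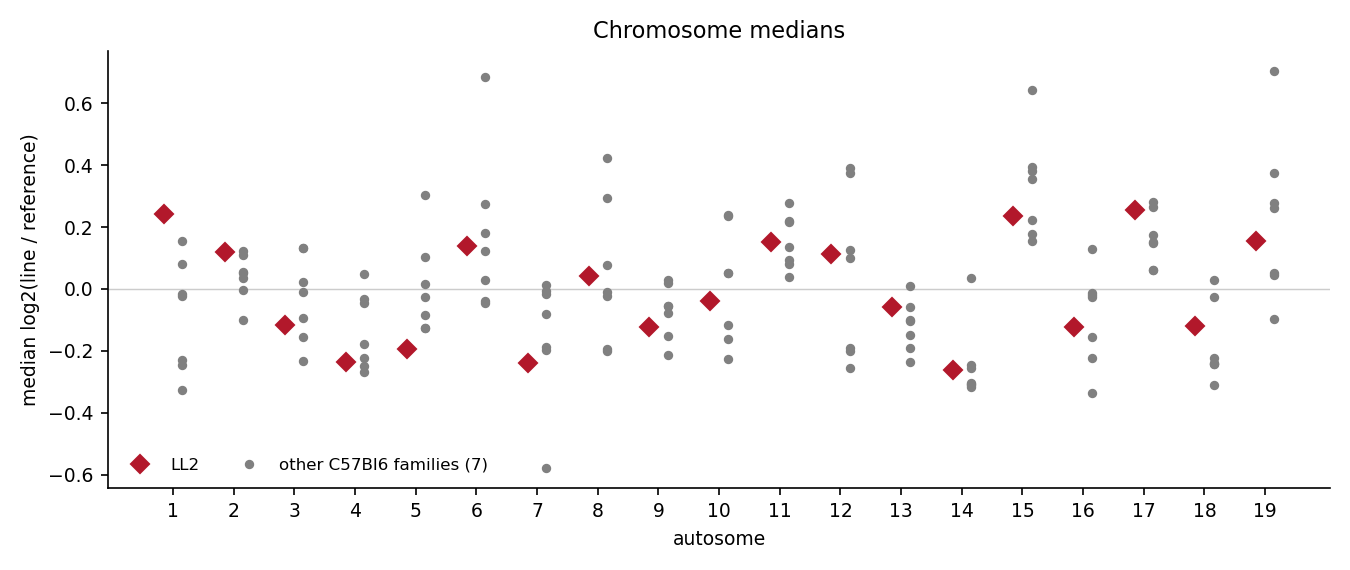
Median log2 ratio of each autosome (horizontal axis) in LL2 (red diamonds) and in each of the 7 other C57BI6 families (grey points), without error bars because each point is 1 line or family. LL2 lies above all families on chromosome 1 (0.24) and below all of them on chromosome 5 (-0.19).

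The remaining long gains and losses were levels that some other C57BI6 families reached too. On chromosome 12, LL2 was gained from 3095298 to 36564392 at 0.36 and from 69721585 to 81598213 at 0.40. Only PAN02, at 0.46 and 0.44, and Hepa1-6, at 0.43 and 0.42, were also past 0.3 there. These 2 families had nearly the same profile. Chromosome 12 then stood at -0.18 from 81608368 to 88079898, at 0.33 from 88086723 to 90408703 and at -0.25 from 90417595 to 104117682, so its profile alternated along the distal part. On chromosome 6, LL2 was gained from 28787914 to 40989740 at 0.37, from 66625458 to 73683623 at 0.43 and from 82399229 to 85164691 at 0.48. The highest family exceeded LL2 in all 3 of these, at 0.72 to 0.87, so none was outside the range of the strain's other lines.

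On chromosome 19, LL2 was gained from 36894975 to 48296805 at 0.31, beside a family median of 0.35 and a highest family value of 0.82. Chromosome 14 was lost from 3892581 to 16156209 at -0.37 and over the 45.2 Mb from 78727539 to 123948262 at -0.31. The family medians there were -0.24 and -0.34, and the lowest family stood at -0.38 and -0.59. In the first of these 3 families were past -0.3, and in the longer one 4 families and 2 other-strain lines were. Chromosome 7 was lost from 50229734 to 63329234 at -0.40, beside a lowest family value of -0.70. The distal part of chromosome 16, from 88467749 to 98237087 (9.77 Mb), differed from these: it stood at -0.39 in LL2, against -0.28 to 0.24 in the families, and no other family reached -0.3.

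The highest level in the LL2 genome was an amplicon on chromosome 15, the chromosome of the oncogene Myc and its neighbour Pvt1. The main segment ran from 61440614 to 62200089 and stood at 4.00 ± 0.06 (SE, 65 probes), a 15.98-fold ratio. Beyond it, from 62208606 to 62539934, followed a lower tier at 2.72 ± 0.07 (SE, 28 probes), a 6.57-fold ratio. In the 7 other C57BI6 families the main segment ran from -0.12 in EL4 to 0.56 in ID8, and the lower tier from -0.06 to 0.55. No family overlapped LL2 in either tier. Probe by probe, 95 consecutive probes from 61414935 to 62539934, a stretch of 1125 kb, each lay at least 1 above every one of the 7 families. Over all autosomal probes 0.0899% lay that far above, and the amplicon held 95 of those 198 probes.

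The amplicon was not level. At its proximal edge, 2 probes from 61414935 to 61430113 stood at 2.08 and 1.90, an intermediate step before the main tier. Within the main tier the first 7 probes averaged 3.46 ± 0.07 (SE), and the next 42 averaged 3.94 ± 0.06. A crest of 12 probes from 62045591 to 62155514 averaged 4.57 ± 0.08, a 23.7-fold ratio, with the highest single probe at 5.24. The last 4 probes before the lower tier averaged 3.86 ± 0.09. The first stretch was thus the lowest of the 4 and the crest the highest. The stretches inside the tier were divided after their values were seen.

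The steps of the amplicon lay between neighbouring probes. The last probe of the main tier stood at 3.68 and the first of the lower tier at 2.68, with 8.52 kb between them. At its proximal side, a probe at 1.90 and the first main-tier probe at 3.16 lay 10.5 kb apart. At the distal end of the lower tier, a probe at 2.66 and the next at -0.07 lay 12.1 kb apart. After 6 probes at 0.14 ± 0.08, a separate island of 3 probes from 62652394 to 62682637 rose again to 2.24 ± 0.08, a 4.73-fold ratio, against -0.15 to 0.28 in the 7 families. The island has fewer probes than a segment requires and was found by the probe-by-probe comparison. The flanks were at the level of the rest of the chromosome: 23 probes before the amplicon averaged 0.24, and 26 probes after the island averaged 0.15. Among the other strains, the breast line 4T1 averaged 1.09 over the amplicon and 1.79 over the proximal flank, so it was higher before the LL2 amplicon than within it, while CT26, Renca and P815 averaged 0.35, 0.19 and -0.13 over the amplicon.

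**Figure D3:**
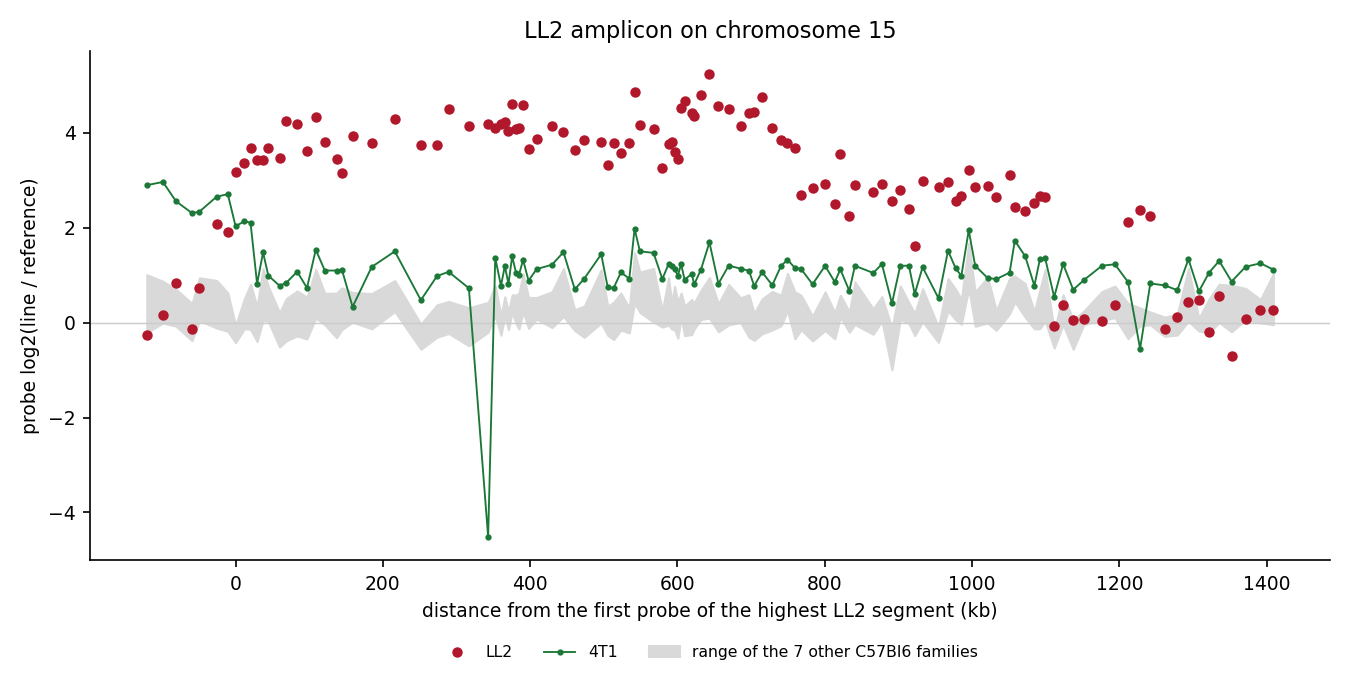
Log2 ratio of single probes (vertical axis) against the distance in kb from the first probe of the highest LL2 segment on chromosome 15 (horizontal axis), for LL2 (red points), the Balb/C line 4T1 (green) and the range of the 7 other C57BI6 families (grey band). LL2 forms a main tier at 4.00 with a crest at 4.57, a lower tier at 2.72 and a separate island at 2.24, all above the band.

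The lowest segment of LL2 was a deletion on chromosome 4 from 88738012 to 89145898, 408 kb long. It averaged -4.67 ± 0.23 (SE, 24 probes), and the LL2 channel was not well above background at 21 of the 24 probes, so the ratio is only a bound: the LL2 signal was at least 9.38-fold below that of the reference. With normexp background correction, run with an offset of 50, the segment stood at -1.27. The 3 probes with LL2 signal above background stood at -2.36, -4.16 and -2.22. The probe before the deletion stood at 0.47 and lay 11.96 kb away, and the probe after it stood at 0.43, 20.6 kb away. With normexp the end of the deletion shifted by -136 kb, and with segments found on odd probes alone by -92.5 kb, while its start shifted by 25.4 kb with the change point penalty halved. The chromosome on both sides of this deletion was not at the same level: the segment before it, from 85905467 to 88726048, stood at 0.23, and the segment after it was the loss at -0.37 described above.

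Deletions overlapping this one were present in several other lines, with borders that differed. Values of those lines are given as measured, without a bound. At its first 5 probes, from 88738012 to 88759744, LL2 averaged -5.63, with at least a 14.6-fold lower signal than the reference, and B16, MC38 and ID8 averaged -6.23, -5.92 and -5.28. EL4, TRAMPC, Hepa1-6 and PAN02 averaged -0.03, -0.37, -0.48 and -0.51 there. LL2, MC38 and, among the Balb/C lines, CT26 had the same first low probe, at -5.65, -6.36 and -5.81, with LL2 at 0.47 and MC38 and CT26 at 0.24 and -0.71 on the probe before. The Balb/C line 4T1 was not low at the first 2 of these probes, at -0.33 and 0.02, and averaged -3.67 over the 5, while Renca averaged -1.43. B16 and ID8 were already low 3 probes earlier, from 88706575, at -5.68 and -6.13, where LL2 stood at -0.05. The LL2 deletion reached farther on the distal side than that of any other C57BI6 family. Over its last 14 probes, from 88887041 to 89145898, LL2 averaged -4.66 and the families -0.11 to 0.75. As a bound, the LL2 signal was at least 8.94-fold below that of the reference there. Each of these probes in LL2 lay at least 1 below every family. Such probes made up 0.194% of all autosomal probes. P815, the DBA/2 line, was low on both sides and averaged -4.93 over the LL2 deletion.

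**Figure D4:**
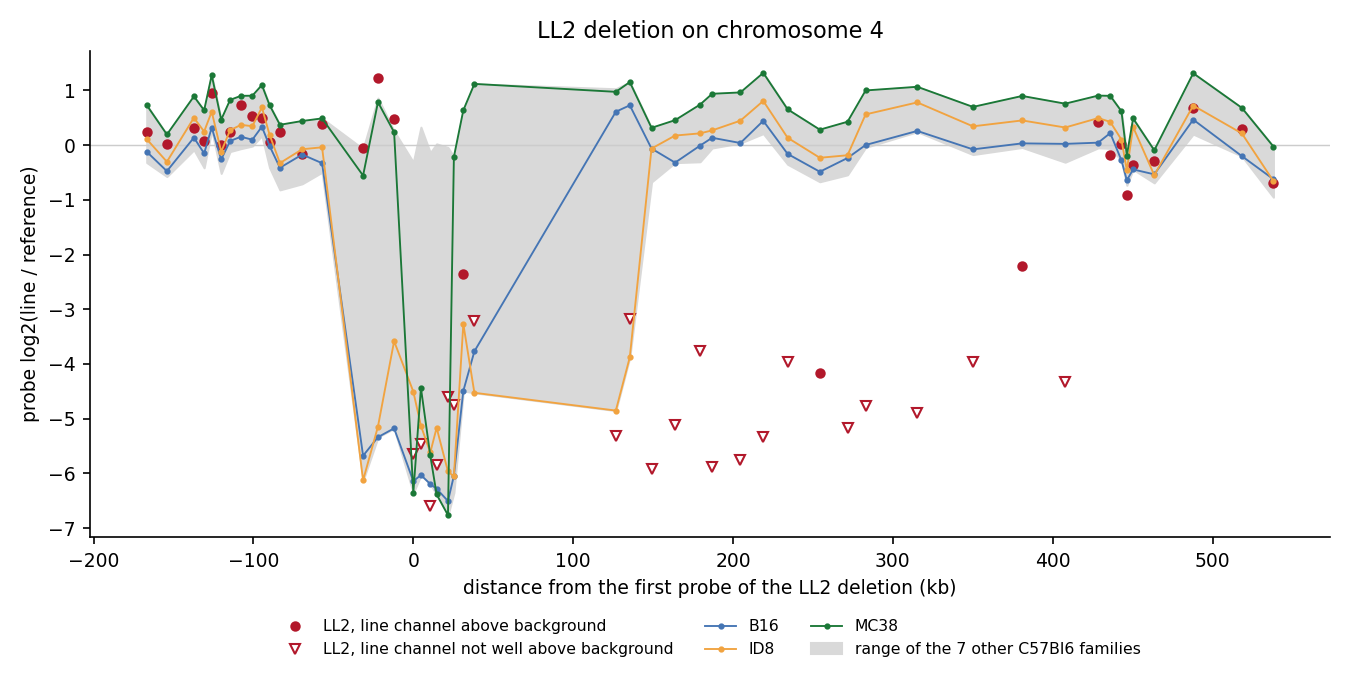
Log2 ratio of single probes (vertical axis) against the distance in kb from the first deleted probe of LL2 on chromosome 4 (horizontal axis), for LL2 (red; open triangles where its signal was not well above background), B16, ID8 and MC38 (lines joining probes) and the range of the 7 other C57BI6 families (grey band). LL2 is low over 408 kb, from the same first probe as MC38, and stays low over 14 probes beyond the end of the ID8 deletion.

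Other short segments of LL2 outside the range of the 7 families were smaller in size. On chromosome 5, 57 probes from 50171739 to 51338279 averaged -1.15 ± 0.05 (SE), against -0.64 in MC38 to 0.16 in ID8. All 57 LL2 signals were above background, and the signal was 0.449 times that of the reference. On chromosome 2, 64 probes from 140816382 to 141496758 averaged -0.72 ± 0.06, and no other family reached -0.3, with a range of -0.28 to 0.48. The first probe inside stood at -0.76 and the probe before it at 0.01. Chromosome 9 was lost from 121764426 to 123957580 at -0.38, also beside no family past -0.3. Chromosome 17 held a longer gain, above the 5 Mb bar for a short segment, from 22643372 to 30161139 at 0.40, just above the highest family at 0.39. It was followed by a short loss from 30169694 to 30637549 at -0.33, which was not particular to LL2, since 4 families shared it.

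Chromosome 8 carried a pair of short gains. The first, from 103294142 to 103558384, averaged 0.81 ± 0.07 (SE, 30 probes), against -0.24 to 0.33 in the 7 families. The second, from 125810875 to 126181726, averaged 1.02 ± 0.06 (SE, 59 probes), against 0.01 in Hepa1-6 to 0.70 in MC38. LL2 was above all 7 families in both, with the rest of distal chromosome 8 between -0.09 and 0.23. On chromosome 3, a gain from 107749331 to 108115702 stood at 0.57, beside -0.05 to 0.41. On chromosome 14, 3 neighbouring probes from 109719754 to 109771018, too few for a segment, averaged -2.60 in LL2 and -0.94 to 0.11 in the families, with the LL2 channel not well above background at 1 of them.

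The median of the 7 families was also subtracted from LL2, and the difference was centred again on its autosomal median. Divided into segments anew, the difference gave 83 autosomal segments, of which 11 were at or above 0.3 and 16 at or below -0.3. They covered 5.93% and 4.22% of the probes. The amplicon tiers stood at 3.60 and 2.31 on this scale, the chromosome 4 deletion at -4.69, the proximal loss of chromosome 4 at -0.54, and the losses on chromosomes 5 and 2 at -0.99 and -0.73. All of these remained separate segments with the same borders. The difference also divided off a stretch of chromosome 2 from 37723687 to 37965223 at -0.56, and one of chromosome 7 from 126416495 to 126767143 at the same value. LL2 itself averaged -0.48 and -0.53 there, against -0.04 to 0.18 and -0.38 to 0.23 in the families.

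LL2 was also compared with the 7 families in fixed bins of 100 kb with limma, whose estimate of the spread here comes from the 7 families alone, since the lone LL2 array is assumed to vary as they do. The families are different tumour lines and not replicates of 1 condition, so the p-values set LL2 against the spread between lines and hold no variation of LL2. Of 17615 bins with at least 5 probes, 10 were higher in LL2 (0.0568%) and 2 were lower (0.0114%) at a Benjamini-Hochberg adjusted p under 0.05. All 10 higher bins lay in the amplicon, between 61400001 and 62500000 of chromosome 15. Their mean was 2.61 to 4.25 in LL2, against 0.13 to 0.58 over the families, and their limma adjusted p-values ran from 1.6e-06 to 0.000547.

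One of the 2 lower bins, from 88900001 to 89000000 of chromosome 4, lay in the deletion, where most LL2 signals were not well above background, and stood at -4.85 in LL2, against 0.16 over the families (limma adjusted p = 1.6e-06). With all 11 families of every strain as the comparison, this bin no longer passed (limma adjusted p = 0.795), nor did it with normexp (limma adjusted p = 0.742). Without EL4, 4 bins were lower in place of 2. The other lower bin, named although it lies in no named segment because it is 1 of only 2 and therefore chosen after its values were seen, ran from 134300001 to 134400000 of chromosome 4 and stood at -0.92 in LL2, against 0.36 (limma adjusted p = 0.00848). It holds 5 probes, 1 of which, at 134366818, stood at -2.45 with no LL2 signal well above background and at 1.99 to 2.27 in the families. With the median of the probes in place of their mean, that bin stood at -0.40, against 0.10 over the families (limma adjusted p = 0.999), and within the scan batch its limma adjusted p was 0.0900. Without multiple testing adjustment, 304 bins were higher and 319 lower at p under 0.05. LL2 lay above all 7 families in 10.9% of the bins and below all 7 in 11.5%.

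Changes shared with the other C57BI6 families were set apart by counting families past the same threshold in the same direction. Of the 54 called segments, 17 were past it in at least 6 of the 7 other C57BI6 families, and these were short: the 12 gains held 0.111% of the autosomal probes and the 5 losses 0.0508%. Of these 17, 4 gains and 3 losses were past the threshold in all 4 other-strain lines too, so they are not particular to C57BI6. Whether they come from the common reference DNA was not tested. Another 31 of the 54 were past the threshold in 1 to 5 families, and 6 in none. The 6 without any other family were the gains of chromosome 1 from 106805365 and from 141690979, and the losses of chromosome 2 from 140816382, of chromosome 4 from 30862925, of chromosome 9 from 121764426 and of distal chromosome 16. In 23 of the 54, LL2 lay outside the range of all 7 families, 11 times above it and 12 times below. The same held for 29.5% of the 156 segments of any size.

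The shared gains differed in whether the other strains had them. In 5 of the 12 shared gains no other-strain line was past 0.3, and in 4 all of the other-strain lines were. The first kind included 3 short segments of chromosome 4, from 111579573, 111742731 and 121473470, that stood at 3.19, 3.27 and 2.88 in LL2, with the families at 2.92 to 4.65 and the other strains at -1.54 to -0.45. At these the reference was not well above background at 8 of 9, 21 of 25 and 7 of 13 probes, so the ratio is a bound and LL2 was at least 4.75-fold, 3.62-fold and 5.20-fold higher. A segment of chromosome 12 from 104162382 stood at 1.41 in LL2 and at 1.47 to 2.27 in the families. The second kind included segments of chromosome 3 from 91238803 at 2.12, of chromosome 5 from 62046391 at 1.71 and of chromosome 1 from 141476467 at 1.85. In the last of these LL2 exceeded the other families, which ran from 0.78 to 1.36. A gain of chromosome 8 from 22521623 stood at 2.04 in LL2, at a median of 1.79 in the families and at 0.04 to 0.35 in the other strains. With the penalty for a change point doubled, the segments of chromosomes 1, 3, 5, 8 and 12 merged with their surroundings, and with normexp all 8 of these shared gains did.

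Shared losses also differed in this way. Segments of chromosome 2 from 77680396, of chromosome 11 from 116564047 and of chromosome 7 from 67535802 stood at -1.96, -2.04 and -1.01 in LL2 and were past -0.3 in all other families and all other-strain lines. On chromosome 11 the other strains were lower still, at -5.71 to -5.02, and LL2 was below the other C57BI6 families, at -1.84 to -1.59, but with the penalty doubled this segment was not separate. A loss of chromosome 1 from 173351486 stood at -1.67 in LL2 and at -2.31 to -1.74 in the families, but at -0.01 to 0.15 in the other strains. A loss of chromosome 7 from 37887916 stood at -2.31 in LL2, beside -2.58 to -1.73 in the families, and it too was not separate with the penalty doubled. In these 5 segments LL2 differed from the C57BI6 families by no more than 0.39 in log2 after their median was subtracted and the difference centred again.

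**Figure D5:**
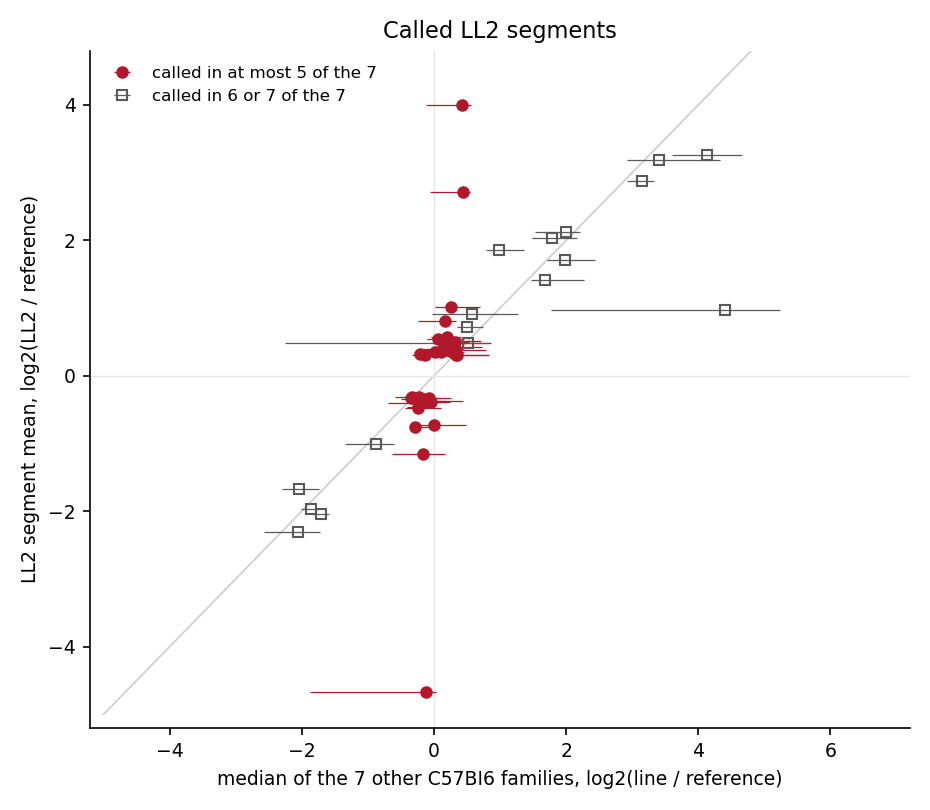
Mean log2 ratio of the 54 called autosomal segments in LL2 (vertical axis) against the median of the 7 other C57BI6 families over the same probes (horizontal axis), with horizontal bars from the lowest to the highest family and the line of equality. Open squares, called in 6 or 7 families, lie mostly near the line. Among those off it are the squares at 0.98, 1.85 and 3.27 on the vertical axis. The amplicon at 4.00 and the deletion at -4.67 lie far from the line.

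Within and beyond the shared block on chromosome 4, LL2 and EL4 departed from the other C57BI6 families. In the shared segment from 111644442 to 111730343 LL2 stood at 0.98, against 1.77 in EL4 to 5.24 in MC38, and the reference was not well above background at 8 of 9 probes. Farther along, beyond the shared block, LL2 averaged -0.47 and EL4 -0.53 over 32 probes from 112304580 to 113200796. The other 6 families averaged 1.88 to 2.39 there, and the other-strain lines -1.22 to -0.48. This stretch was chosen after its values were seen, because LL2 and EL4 were low there, so the contrast follows in part from the choice. The LL2 channel was not well above background at 19 of these 32 probes, and neither was the reference at 19. In the window around this block, 16 probes were below 0 in both LL2 and EL4 and at or above 1 in each of the other 6 families, beside 40 that were at or above 1 in LL2 and all 7 families. Over all autosomes there were 20 such probes, against 24 where EL4 was low and LL2 was high, and 6 where LL2 alone was low, beside 852 at or above 1 in LL2 and all 7 families and 91 where LL2 alone lay between 0 and 1. Of those 6, 3 lay on chromosome 4, at 132591285, 133052551 and 134366818.

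Single probes at which LL2 lay at least 1 below all 7 families were concentrated on chromosome 4. Of 428 such probes on the autosomes, 139 were on chromosome 4, or 1.03% of its probes, and the next highest were chromosome 5 at 0.334% and chromosome 14 at 0.246%. Chromosome 1 had 1 in 16182. Some of those on chromosome 4 lay in the lost proximal end, where the window from 20000001 to 30000000 held 27 of 605. Outside called losses they were again frequent from 110000001 to 150000000 of chromosome 4, a region chosen after its values were seen, with 55 of 4332 probes (1.27%), against 0.126% of autosomal probes outside both the lost segments and this region. At 38.2% of these 55 probes at least 1 other-strain line also lay at least 1 below the C57BI6 median, against 7.57% of all probes of the region. Outside the lost segments and this region, the same held for 10.9% of the low probes, against 5.89% of all probes there. The low probes were selected as lying below all 7 families, and the other strains were scored against the median of those same families. The selection by itself can therefore raise these shares, and the difference was not tested. By the same count against its own 7 neighbours, EL4 had 962 low probes, LL2 428, B16 68, MC38 64 and the other families 26 or fewer. These counts are not a ranking of the lines, since Hepa1-6 and PAN02 each have a near copy among their neighbours, and B16 and TRAMPC are means of several arrays.

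The X chromosome of LL2 had a median of -0.73, inside the range of -1.18 to -0.34 in the 7 families. The sex of the reference DNA is not given in the sources used here, so this level was not read as a change. Its first 11.8 Mb, from 3086068 to 14907307, stood at -1.21 against -1.13 to -0.28 in the families, which was lower than each of the other long X segments of LL2, at -0.85 to -0.62. A short stretch of 7 probes from 153974596 to 154057866 averaged -2.33 ± 0.17 (SE), a 5.03-fold lower signal than the reference, and B16 had the lowest family value there, at -1.92. A stretch of 49 probes from 125408414 to 125799120 averaged -1.31, while MC38 averaged -3.03 over the same probes.

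Over 1 Mb bins of the autosomes, which share probes, reference DNA and array design, the LL2 profile correlated with those of the C57BI6 families at r of 0.30 for EL4 to 0.50 for MC38, and with those of the other-strain lines at 0.23 for P815 to 0.42 for Renca (n = 2376 bins). These ranges overlap. The correlation describes positions along 1 genome and has no test across lines.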

How the data were processed

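Per the labels, DNA of 1 culture per line was labelled with Cy5 and a commercial mouse DNA with Cy3. The deposited intensity values came from Agilent Feature Extraction, per the submitters' processing notes, version 10.7.3.1 and build mm8 per the file headers. The processed intensity was background-subtracted and scaled between dyes by the authors' software with no lowess curve, per the file headers. The deposited value table is in log2 and differed from the log ratio in the files, taken to log2, by at most 5.05e-05 on the LL2 array, so its scale, direction and lack of centring are settled; its LL2 median was -0.0151.

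Here, control and outlier-flagged spots (256 on the LL2 array) were left out, repeat spots averaged and the log2 ratio of the processed signals centred on the autosomal median. Of 235402 probes, 233212 had a position on an assembled chromosome, at a median autosomal spacing of 7827 bp. The LL2 channel was well above background at 99.6% of probes and the reference at 99.4%. Precision is limited by the number of arrays. Segments came from an exact change point search, with a penalty of 6 (in units of squared noise and of the log number of probes), at least 5 probes and single probes limited to 3 noise SDs from a running median of 5. Signals not well above background were raised to the lowest signal that was, which gives "at least" folds. The bins were tested with limma 3.58.1 in R 4.3.3. The steps were tested on simulated data. Arrays of 1 family were averaged, and LL2 shares a scan batch of 10 arrays with 5 of the 7 other C57BI6 families.

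Named segments were those under 5 Mb at or past 1 in size, up to 15 each way, and those of at least 10 Mb at or past 0.3, up to 12 each way. Others were named after their values were seen. The result for 1 item is not reported here. The members, lists and comparisons were chosen with earlier results of these data known. Probes come without gene names or sequences in the files, and the gene table is on GRCm38, so genes are given by chromosome only.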

Additional observations from a re-analysis of the deposited data

How the results depend on the processing

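No paired analysis was possible because LL2 has 1 array and all arrays share the replicate number 1. The amplicon and the deletion kept their direction and remained focal calls under every alternative in which their borders were followed. Mode centring, at least 10 probes a segment and no limit on single probes were not among these. Under those followed, the main amplicon tier moved between 4.00 and 4.05, and as a difference from the families it stood at 3.60. Its start moved by 44.5 kb with the penalty halved, -25.7 kb with normexp and 11.9 kb in the odd and even split. With normexp background correction, run on median signals because the files hold no mean signals, the deletion stood at -1.27 and its end shifted by -136 kb.

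The shares depend on the processing far more. The gained and lost shares were 24.2% and 1.62% with the centre at the mode, 28.7% and 16.9% at a threshold of 0.2 and 0.543% and 0.978% at 0.5. They were 3.78% and 5.10% with the penalty doubled, 8.99% and 6.84% with it halved, 6.34% and 2.50% with normexp, 6.61% and 4.43% with segments found on odd probes and valued on even ones, and 5.93% and 4.22% for the difference from the families. The lost share was 5.54% with at least 10 probes a segment, 4.61% with at least 3 (added after seeing the data) and 5.09% with no limit on single probes. The gained share was 7.82% with outlier spots kept and 5.93% without probes dim in the reference. Mode centring put 4 autosomal medians outside the families. Segments shared with the other C57BI6 families numbered 26 of 54 at a bar of 4 of 7 families and 28 of 88 at a threshold of 0.2, against 17 of 54.

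Of the limma bins, 2 were higher with 1 Mb bins. Lower bins numbered 0 with 1 Mb bins, with normexp and with all 11 families, 4 with at least 3 probes a bin and 1 within the scan batch. At an unadjusted limma p under 0.05 the settings with 0 had 30, 357 and 216 lower bins. Leaving out 1 family at a time gave 10 higher bins each time and 2 to 4 lower ones, the 4 without EL4.

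Several short segments shared with the other C57BI6 families merged with their surroundings, at the level of the merged segment. With normexp, the 3 on chromosome 4 merged at -0.14 and those of chromosomes 5, 12, 3, 8 and 1 at -0.23, -0.17, 0.16, 0.08 and 0.38. With the penalty doubled, those of chromosomes 3, 5, 12, 11, 8 and 1 and that of chromosome 7 from 37887916 merged at -0.0061, -0.27, -0.19, 0.20, 0.086, 0.35 and -0.20. Without dim probes, those of chromosomes 5, 12, 3 and 1 merged at -0.27, -0.19, 0.16 and 0.39. In the odd and even split, those of chromosomes 5, 11, 1 and 7 merged at -0.28, 0.21, 0.34 and -0.20, and that of chromosome 3 at 0.00. The GC correction was not run, since the files hold no probe sequences.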

Other observations

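Some short stretches appeared only in the difference between LL2 and the median of the 7 other C57BI6 families, or only probe by probe. On chromosome 12, 11 probes from 42626370 to 42708280 stood at -0.69 in the difference. LL2 averaged -0.86 there, against -0.82 to 0.35 in the families, so the lowest family was close to LL2. On chromosome 10, 161 probes from 109805074 to 111648835 stood at -0.32 in the difference, with LL2 at -0.19 and the families at -0.09 to 0.33.

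Of the 14 runs of neighbouring probes at least 1 below every family, several were pairs on distal chromosome 4. The lowest pair, from 128661938 to 128670220, averaged -2.09 in LL2, against -0.23 to 0.12 in the families and -0.24 to 0.32 in the other strains. The pair from 141086390 to 141090856 averaged -1.78 in LL2, against 0.16 to 0.45 in the families and -1.36 to 0.74 in the other strains. On chromosome 8 a pair from 117847559 to 117855442 averaged -2.12 in LL2, against -0.68 to 0.00 in the families. Pairs of probes are too few for a segment, were chosen after their values were seen, and have no replicate array, so whether they are changes of DNA or of single probes was not tested.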
